A study of Papio anubis and Macaca fascicularis and Castor canadensis with 48 samples.

Results

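Liver libraries of the North American beaver (Castor canadensis) were compared with those of 2 Old World monkeys, the baboon (Papio anubis) and the long-tailed macaque (Macaca fascicularis). The libraries were chosen by their species and organ labels: 2 beaver livers, 6 baboon livers and 6 macaque livers, which makes 14 of the 48 libraries of the series. All 14 belong to the same collection, made at a primate research center, and the labels describe the animals as male, wild type and adult, and name no treatment. The 34 libraries left are other organs of these species and organs of 5 more mammals from an earlier collection. RNA was extracted from frozen organs and sequenced in bulk, so fewer cells of a type and less RNA per cell cannot be told apart. The labels do not say that libraries of a group are separate animals, and the p-values then measure only the spread between these libraries.

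The liver makes most proteins of blood plasma, synthesises bile acids, stores and releases glucose, and clears ammonia, drugs and plant toxins from the blood. Hepatocytes hold most of its RNA, and a few secreted proteins account for a large share of the transcripts. Beavers are rodents that live on bark and leaves and ferment fibre in the hindgut, while baboons and macaques are omnivores. A comparison of such distant species measures differences that have built up along both lineages and does not say on which one they arose.

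The rows of the count table are mouse Ensembl gene IDs for every species, and no table at hand pairs them with gene names, so genes are given by ID, at most 2 in each direction for a comparison. The step that gave reads of a beaver or a monkey to a mouse gene ID is not described in the labels. A difference between species in the level of a gene and a difference in how well its reads were assigned cannot be told apart for any single gene below.

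Total counts were 21593334 and 22969388 in the beaver livers and 21915567 to 26801829 in the primate livers. Fewer genes had a count in beaver, 12924 ± 46 (SD, n = 2) against 13536 ± 95.5 in baboon and 13483 ± 69.3 in macaque (n = 6 each). The beaver values, 12892 and 12957, lay below the lowest primate value of 13389, and an exact two-sided permutation test of 2 against 12 libraries gave p = 0.011, the smallest it can give, and 0.099 after Benjamini-Hochberg adjustment over 9 measures of the libraries. The number of genes at 1 CPM (the counts-per-million scale, by total count) or more was 10729 ± 69.3 in beaver, 10914 ± 105 in baboon and 10904 ± 177 in macaque, which is within the spread (exact permutation p = 0.121, adjusted 0.212).

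The liver label was compared with the other organs, since liver markers could not be looked up by name. Over 13125 genes, the 2 beaver livers had a Spearman correlation of 0.971 with each other. Their median correlation was 0.821 with chipmunk liver, 0.793 with macaque liver and 0.785 with baboon liver. The other 4 liver groups (bear, tube-nosed bat, sugar glider, white-footed mouse) lay between 0.687 and 0.784. All 7 liver groups thus lay above every group from another organ, the nearest of which was macaque kidney at 0.671, and beaver brain stood at 0.529. Among the 14 livers, baboon and macaque were nearer to each other (0.908 to 0.938) than beaver was to baboon (0.777 to 0.792) or to macaque (0.785 to 0.795). These correlations run across genes, which are not independent replicates, and they carry no test.

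The 2 beaver livers resembled each other gene by gene. Of the 4543 genes with a mean of at least 20 CPM over the 3 species, 84.8% differed by less than 1.5-fold between the 2 beaver libraries, and 238 differed by more than 2-fold. The median SD of a gene on the log2(CPM + 0.5) scale was 0.147 in beaver, 0.237 in baboon and 0.277 in macaque, so the beaver pair spread no more than the primate groups did, as far as 2 libraries can show.

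Beaver liver differed from the primate livers in most genes tested. Each gene was tested against the mean of the 2 primates with equal weight per species, using the quasi-likelihood F test of edgeR, and was called when its Benjamini-Hochberg adjusted p was under 0.05 and its log2 fold change had the same sign against each primate. Of 13125 genes tested, 7209 were called (54.9%). Of these, 3392 were higher in beaver (25.8%) and 3817 were lower (29.1%). The sign requirement removed 58 genes that passed the threshold. The median log2 fold change over all genes tested was -0.11, and the median of its size was 0.87.

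Many of these differences were large. A log2 fold change of at least 1, a doubling or more in either direction, was fitted for 5057 called genes, 2271 higher and 2786 lower. At least 2 on the log2 scale was reached by 1076 higher and 1605 lower genes, and at least 5 by 270 higher and 695 lower genes. Among the 4543 genes with a mean of 20 CPM or more, 49 higher and 82 lower genes reached 5, and among genes with a count in all 14 livers 32 and 87 did. Fitted values of genes with no count on a side depend on the prior count that edgeR adds, and they are treated below as bounds.

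The calls did not rest on 1 of the primates. Against baboon alone 7144 genes passed the threshold (54.4%), 3356 higher and 3788 lower in beaver. Against macaque alone 6945 passed (52.9%), 3210 higher and 3735 lower. The 2 contrasts share the beaver libraries. Genes called with equal weights that also passed against each primate separately numbered 5625 (42.9%), 2613 higher and 3012 lower. For comparison, 3178 genes differed between baboon and macaque livers (24.2%), a contrast with 6 libraries on each side, and the median size of the log2 fold change was 0.35 there against 0.89 for beaver and baboon and 0.87 for beaver and macaque.

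The beaver libraries stood wholly outside the 12 primate libraries for 5956 genes (45.4%), above all of them for 2872 and below all of them for 3084. Of the called genes, 5795 had this property. At the other end, 42 genes differed from both primates in opposite directions, 18 of them above baboon and below macaque and 24 below baboon and above macaque. For such genes beaver lay between the primates.

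**Figure D1:**
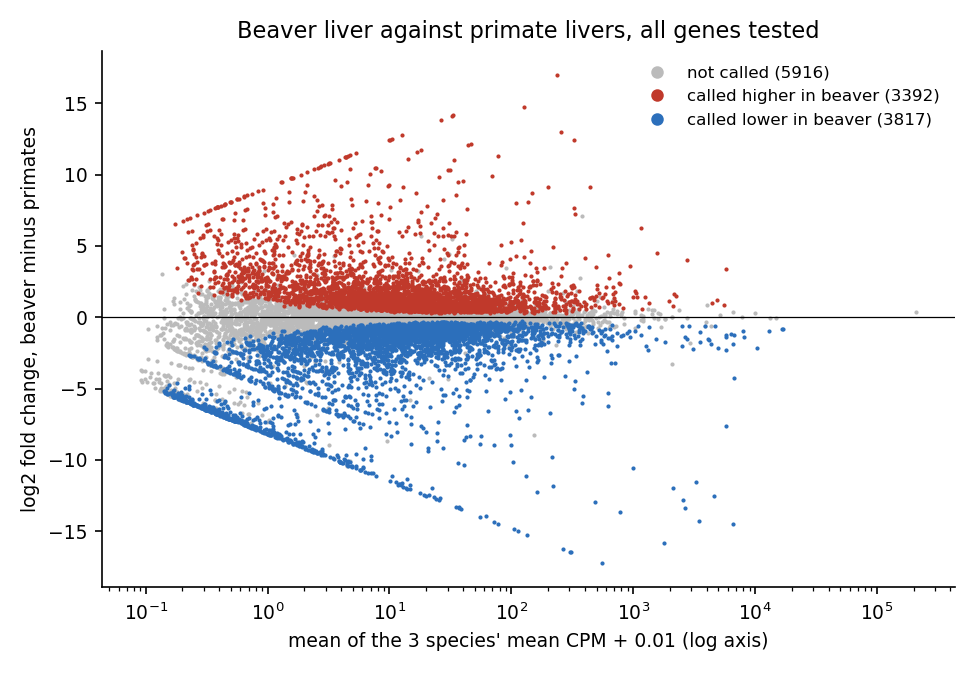
Log2 fold change of beaver liver over the mean of the primate livers (vertical axis) against the mean level over the 3 species in CPM (horizontal log axis), 1 point per gene tested. Of 13125 genes, 3392 were called higher and 3817 lower, and the straight diagonal bands at both edges are genes with no count on a side, whose fitted values follow from the prior count.

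Genes of every level were called. The share was 46.9% of 1694 genes with a mean under 1 CPM, 57% of 4521 genes from 1 to 10 CPM, 55.1% of 5945 genes from 10 to 100 CPM and 57.1% of 868 genes from 100 to 1000 CPM. In the middle classes higher and lower calls were nearly balanced, for example 1602 against 1676 from 10 to 100 CPM and 244 against 252 from 100 to 1000 CPM. Of the 97 genes at 1000 CPM or more, 61 were called (62.9%), 17 higher and 44 lower in beaver. These classes use the mean over 3 species, 2 of them primates, so a gene high in primates enters an upper class more easily than a gene high in beaver. The split of the calls by direction within a class, or above a minimum mean, is therefore a description and shows no shift of abundant genes.

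Shares of a library's counts are given next for the most abundant genes. These are not per length, so they rank genes by counts and not by transcripts. The most counted gene was the same in all 3 species, taking 25.7% of the counts in beaver, 19.4% in baboon and 17.5% in macaque. Its log2 fold change was 0.37 ± 0.28 (SE; edgeR adjusted p = 0.278), so it was not called. The second most counted gene of beaver liver took 1.47% of the counts there, and 0.131% in baboon and 0.128% in macaque, where it ranked 80 and 79. Its levels were 13283 and 16149 CPM in the 2 beaver livers, 1048 to 1598 CPM in baboon and 716 to 1887 CPM in macaque, with no overlap. The difference was 3.41 ± 0.21 on the log2 scale (SE; edgeR adjusted p = 1.08e-08), and in the beaver brains the gene stood at 1202 and 1359 CPM.

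Of the 10 most counted genes of beaver liver, 2 were higher than in the primates, 3 were lower and 5 were not called. They took 35.8% of the counts in beaver. The 10 most counted genes of each library, chosen library by library, took 36.1% ± 0.849 in beaver, 33.1% ± 4.29 in baboon and 30.8% ± 2.57 in macaque, which did not differ beyond the spread (exact permutation p = 0.154, adjusted 0.212). The top 10 of beaver shared 6 genes with that of baboon and 6 with that of macaque, and the primates shared 7. Of the 100 most counted genes in beaver liver, 65 were in the baboon top 100 and 63 in that of macaque, 60 were in both, and 32 were in neither. The primates shared 87 of their 100. Of those 87, 7 genes were under 1 CPM in both beaver livers. Of the 100 in beaver, 42 were called higher, 24 lower and 34 were not called. Genes ranked by their beaver level lean toward higher values by that choice, and the split is a description.

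The genes given by ID were taken from the 1823 genes that had a count in all 14 livers, a mean of at least 20 CPM, a call against each primate and no overlap. Of these, 881 were higher and 942 lower in beaver, and the 2 at each end by log2 fold change are described.

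ENSMUSG00000004032 was the gene with the largest positive fold change of this pool. Its levels were 1623 and 1018 CPM in the beaver livers. In baboon liver they were 0.784, 0.664, 1.24, 2.65, 1.85 and 3.02 CPM, and in macaque liver 1.87, 2.67, 1.85, 3.96, 3.92 and 3.74 CPM. Both beaver livers were thus far above every primate liver, and the baboon and macaque ranges overlapped. The log2 fold change was 9.10 ± 0.34 (SE; edgeR adjusted p = 5.02e-11), made up of 9.47 ± 0.46 against baboon and 8.74 ± 0.45 against macaque. The same gene stood at 848 and 657 CPM in the beaver brains and at 96.4 ± 19.1 CPM in baboon brain (SD, n = 6). In the livers of the earlier collection it stood at 5.22 ± 1.31 CPM in chipmunk (SD, n = 2) and 87.7 CPM in the single white-footed mouse, both rodents, and at 7.35 CPM in bear, 29.2 CPM in bat and 18.8 ± 7.32 CPM in sugar glider. The beaver livers were the highest of all 8 species.

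ENSMUSG00000049685 came second, with 433 and 384 CPM in the beaver livers. In baboon liver it stood at 2.9, 1.33, 5.02, 2.5, 1.69 and 2.22 CPM, and in macaque liver at 0.821, 1.81, 0.849, 0.088, 0.365 and 0.565 CPM. No primate liver came near the beaver pair, and 5 of the 6 macaque livers were under 1 CPM. The log2 fold change was 8.07 ± 0.43 (SE; edgeR adjusted p = 1.91e-09), with 7.11 ± 0.55 against baboon and 9.02 ± 0.59 against macaque. Unlike the gene before, it was nearly uncounted in beaver brain, at 0.255 and 0.131 CPM, which is 6 counts in all, and in baboon brain it stood at 0.68 ± 0.345 CPM. In other livers it was at 94.8 CPM in white-footed mouse, 5.26 ± 0.491 CPM in chipmunk, 1.47 CPM in bear, 0.694 CPM in bat and 0.0806 ± 0.114 CPM in sugar glider. By group mean the order was beaver, white-footed mouse and chipmunk, with chipmunk close to the highest baboon liver of 5.02 CPM.

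The 2 most negative fold changes of this pool belonged to genes abundant in primate liver. The pool needs a count in all 14 livers, so only genes with a high primate level can reach such values. ENSMUSG00000064363 stood at 0.0926 and 0.522 CPM in the beaver livers, 14 counts in all. Its levels ran from 2148 over a median of 2762 to 3361 CPM in baboon liver and from 12516 over 15218 to 23706 CPM in macaque liver. The groups were far apart, and the primates also differed from each other, at -2.53 ± 0.25 on the log2 scale for baboon over macaque (SE; edgeR adjusted p = 6.04e-06). For beaver the value was -14.50 ± 0.70 (edgeR adjusted p = 7.2e-10), with -13.23 ± 0.68 against baboon and -15.76 ± 0.73 against macaque. Its size rests on 2 counts in the first beaver liver and 12 in the second, and it was -13.75 without the first and -16.21 without the second. The gene was also low in beaver brain, at 13 and 0.394 CPM, values that lie far apart, and stood at 6664 ± 1613 CPM in baboon brain. It was abundant in every other liver, at 7825 ± 2082 CPM in chipmunk, 14104 CPM in white-footed mouse, 3451 CPM in bear, 985 CPM in bat and 15558 ± 273 CPM in sugar glider.

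ENSMUSG00000064367 was the other, at 0.185 and 0.348 CPM in the beaver livers, 12 counts in all. Its levels were 5171, 6383 and 8608 CPM as the lowest, median and highest of baboon liver and 2778, 3936 and 5914 CPM in macaque liver. Here the baboon and macaque ranges overlapped, and both lay far above beaver. The log2 fold change was -14.27 ± 0.58 (SE; edgeR adjusted p = 9.62e-11), with -14.68 ± 0.59 against baboon and -13.87 ± 0.57 against macaque. In beaver brain it stood at 6.63 and 0.525 CPM and in baboon brain at 14689 ± 4898 CPM. Chipmunk and sugar glider livers were also low, at 8.78 ± 1.41 and 9.51 ± 0.455 CPM, while white-footed mouse stood at 3796 CPM, bear at 8902 CPM and bat at 5826 CPM. The beaver levels of both genes were thus low in liver and in brain, and the second was low in 2 more species. Both were also among the 35 genes close to absent in beaver liver that are described below. For the 2 genes, the part that read assignment has in the low beaver counts was not tested.

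**Figure D2:**
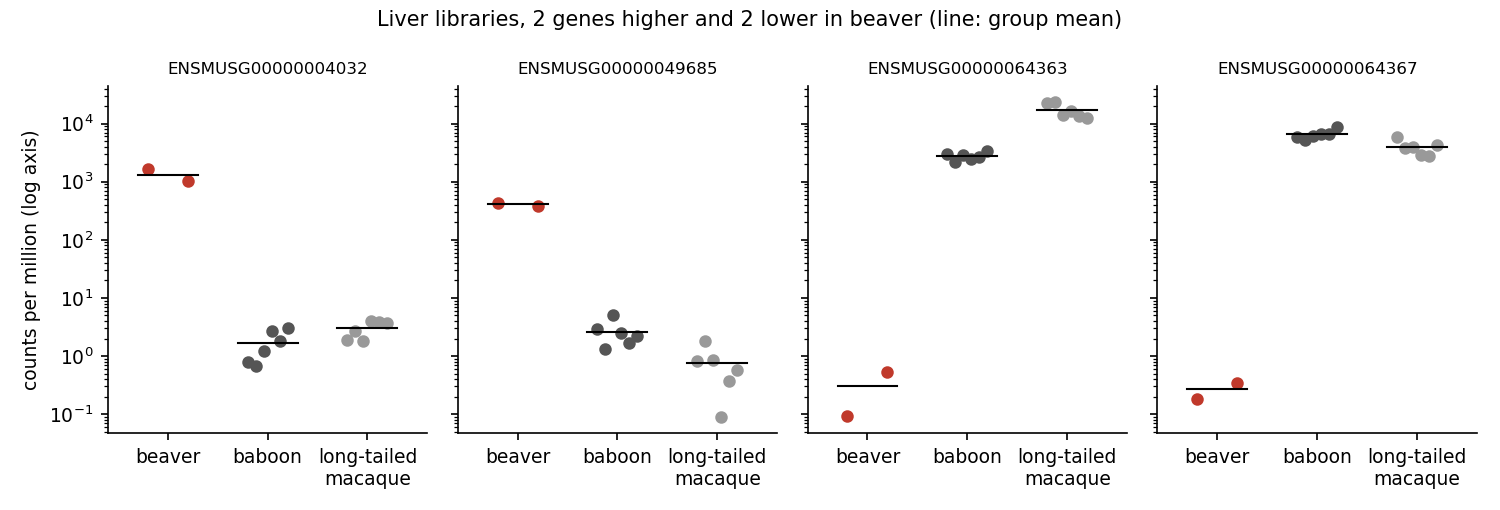
Level in CPM (vertical log axis) of 4 genes in each of the 2 beaver, 6 baboon and 6 macaque livers, with 1 point per library and a line at each group mean. The beaver points lie above every primate point for ENSMUSG00000004032 and ENSMUSG00000049685 and below every primate point for ENSMUSG00000064363 and ENSMUSG00000064367.

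Some genes were close to absent on a side. In 35 genes both beaver livers were under 1 CPM and all 12 primate livers were at 20 CPM or more, with a median of 149 CPM and a highest mean of 9915 CPM in the primates. Of these, 15 had no count in either beaver liver. Against a limit of 3 read pairs over the beaver group (6 deposited counts), those 15 genes were at least 220-fold to at least 6158-fold lower in beaver. In the opposite direction, 34 genes were under 1 CPM in all 12 primate livers and at 20 CPM or more in both beaver livers, with a median of 68.2 CPM and a highest mean of 979 CPM. No primate liver had a count for 7 of them, which were at least 1363-fold to at least 32530-fold higher in beaver. A limit set in counts is a lower CPM over the 12 pooled primate libraries than over the 2 beaver libraries. The fold bounds of the 2 sets are therefore not comparable, and they cover counting error only.

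The near-absent genes were followed into brain. Of the 35 genes that beaver liver lacked, 25 were also under 1 CPM in both beaver brains and 1 was at 20 CPM or more in both. In baboon brain, 9 of the 35 were at 20 CPM or more in every library and 11 were under 1 CPM in every library. The full pattern, under 1 CPM in beaver and at 20 CPM or more in baboon, recurred in brain for 3 genes. By the edgeR test in brain, 22 of the 35 were lower in beaver and 0 were higher (0 also at an unadjusted p under 0.05, and 27 lower and 0 higher by DESeq2, both counts added after seeing the data), against 23.8% lower and 22.5% higher over all genes tested in brain. Of the 34 genes that primate liver lacked, 14 were at 20 CPM or more in both beaver brains and 7 were under 1 CPM in both. Baboon brain was under 1 CPM in every library for 17 of the 34 and at 20 CPM or more in every library for 5, and the full pattern recurred for 6 genes. By the test in brain, 19 of the 34 were higher in beaver and 6 were lower. A gene quiet in both brains cannot show the liver pattern there.

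In the livers of the earlier collection these genes varied. Of the 35 genes lacking in beaver, 13 were at 20 CPM or more in chipmunk, 18 in white-footed mouse, 19 in bear, 18 in bat and 14 in sugar glider. All 5 species reached that level for 7 genes, and none did for 9. Of the 34 genes lacking in the primates, 14 were at 20 CPM or more in chipmunk, 13 in white-footed mouse, 8 in bear, 10 in bat and 9 in sugar glider. All 5 reached it for 5 genes and none for 16. These species were collected apart from beaver and the primates, so their species and their collection cannot be told apart, and the counts are a description.

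Gene groups were formed from organs that do not enter the liver comparison or come from other species, since lists of named pathways could not be matched to the IDs. They rest on single libraries of liver and kidney of bear and of liver and brain of white-footed mouse, were defined after results of these data were known, and carry no test. Liver-enriched genes had at least 10 CPM and a log2 ratio of at least 2 (pseudocount 1 CPM) over kidney in bear and over brain in white-footed mouse. Of the 224 tested, 49 were called higher in beaver (21.9%) and 77 lower (34.4%), and 98 were not called, with a median log2 fold change of -0.15. Over all genes tested, 25.8% were called higher and 29.1% lower. Of the liver-enriched genes, 8 were among those close to absent in beaver and 1 was among those close to absent in the primates, against 35 and 34 of all 13125 genes tested. Genes chosen for their liver level meet the 20 CPM needed on the other side more easily, so these counts are a description.

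Genes enriched in another organ were called at similar rates. Of 883 kidney-enriched genes, 261 were higher (29.6%) and 269 lower (30.5%), with a median of 0.03. Of 2268 brain-enriched genes, 522 were higher (23%) and 661 lower (29.1%), with a median of -0.15. The 517 genes that were even across the organs, within 1 on the log2 scale in bear and in white-footed mouse, gave 130 higher (25.1%) and 119 lower calls (23%), and 268 were not called. Their median log2 fold change was 0.01. The median size of the change was 0.44 for the even genes, against 0.87 for all genes tested and 0.86 for the liver-enriched genes, with 48.2% of the even genes called against 54.9% of all.

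**Figure D3:**
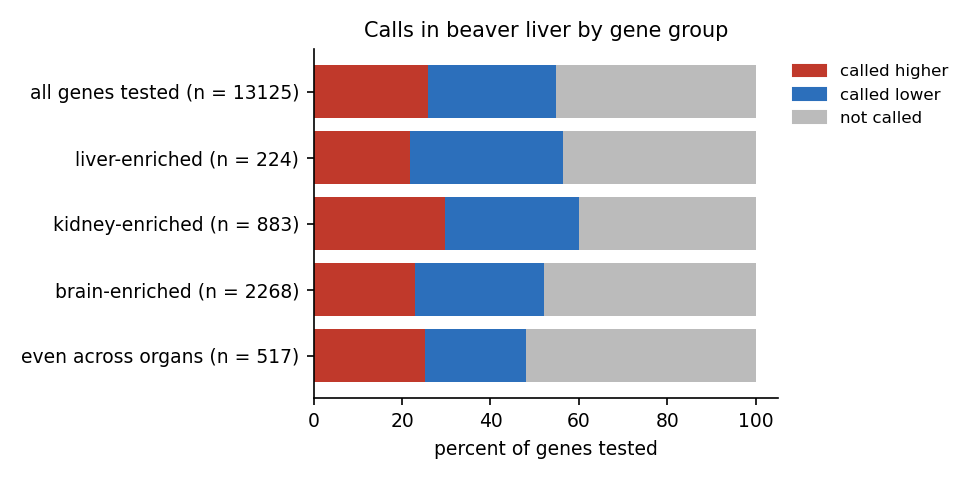
Share of tested genes, in percent, called higher in beaver liver, called lower or not called, as stacked bars for all genes and for the groups defined from bear and white-footed mouse organs. Of liver-enriched genes 21.9% were higher and 34.4% lower, and of the genes even across organs 25.1% were higher and 23% lower.

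The summed share of a library's counts was also taken for each group, again not per length. Liver-enriched genes held 48.8% ± 0.495 of the counts in beaver (SD, n = 2), 53.8% ± 3.28 in baboon and 51.2% ± 2.41 in macaque (n = 6 each), which did not differ beyond the spread (exact permutation p = 0.132, adjusted 0.212). Such sums follow the most abundant genes. The most counted gene of the livers alone took 25.7% of the counts in beaver, 19.4% in baboon and 17.5% in macaque. The share of the liver-enriched genes without the most counted gene was not tested. Kidney-enriched genes held 5.21% ± 0.141, 4.53% ± 0.33 and 5.12% ± 0.261 (p = 0.286 by the exact permutation test), and brain-enriched genes 5.3% ± 0.191, 5.39% ± 0.361 and 5.32% ± 0.379 (p = 0.901 by the same exact test). Markers of blood, bile duct or immune cells could not be looked up by name, and their part in the differences was not tested.

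Beaver and baboon were also compared in brain, to see which liver differences recur in a second organ. The comparison used 2 beaver and 6 baboon brains beside the 2 beaver and 6 baboon livers, 16 libraries in 1 fit of 14504 genes. Brain of beaver differed from brain of baboon in 3267 genes that were higher (22.5%) and 3457 that were lower (23.8%) at an edgeR adjusted p under 0.05. The difference between species itself changed between liver and brain, by an interaction term, in 5741 genes (39.6%), of which 2690 were more positive in liver and 3051 more negative.

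Liver and brain often shared the direction. Of 3386 genes called higher in beaver liver against both primates and tested in brain, 1381 were higher in beaver brain (40.8%), 371 were lower (11%) and 1634 passed in neither direction. Of 3787 genes called lower in liver, 1523 were lower in brain (40.2%), 417 were higher (11%) and 1847 passed in neither. Among all 13027 genes tested in both organs, 23% were higher and 23.5% lower in beaver brain. Among the 5854 genes not called in liver the shares were 20.4% and 20%. For 1817 of the genes higher in liver (53.7%) and 2035 of those lower in liver (53.7%), the interaction passed, so the size or the direction of the difference changed with the organ. The choice of genes by their liver call raises this share, which was 42.4% over all genes tested in both organs. The brains are separate libraries, but the labels do not say whether they come from the same animals as the livers.

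The largest liver differences were met in brain more often. Of 266 genes at least 5 higher on the log2 scale in liver, 129 were higher in beaver brain (48.5%) and 29 were lower. Of 669 genes at least 5 lower in liver, 337 were lower in brain (50.4%) and 31 were higher (4.63%). The interaction passed for 165 of the first set (62%) and 282 of the second (42.2%). Over all genes tested in both organs, 23% were higher and 23.5% lower in beaver brain, and the interaction passed for 42.4%. The second set thus stood at the share over all genes. The liver difference is part of the interaction, so choosing genes by its size can raise these shares.

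**Figure D4:**
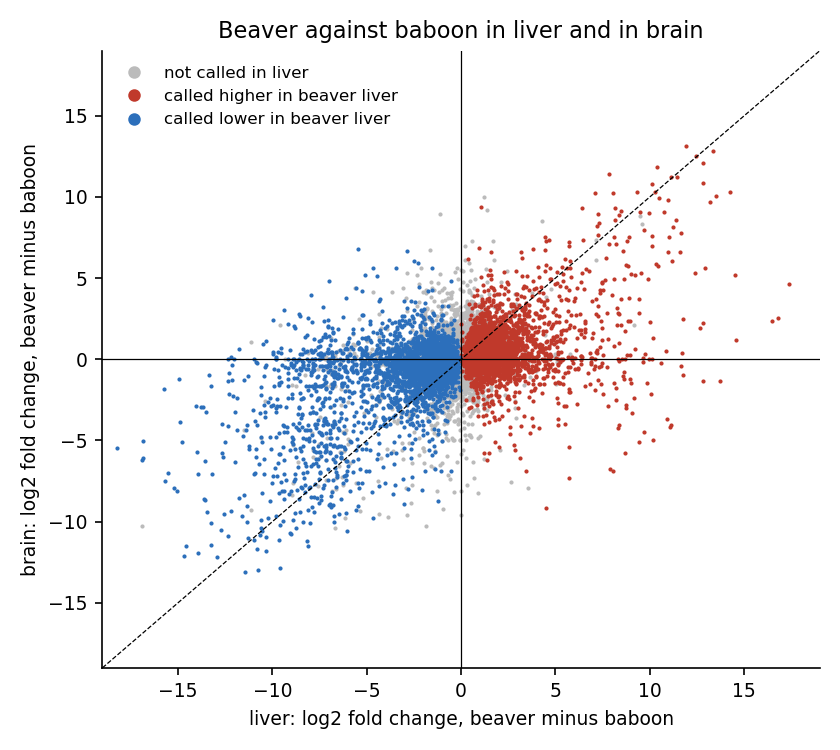
Log2 fold change of beaver over baboon in brain (vertical axis) against that in liver (horizontal axis), 1 point per gene tested in both organs, coloured by its call in liver against both primates, with a dashed line where both are equal. Of 3386 genes higher in beaver liver (red) 40.8% were also higher in brain, and of 3787 lower ones (blue) 40.2% were also lower.

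Genes whose difference was large in liver and small or opposite in brain were picked after their values had been seen. They were taken from genes with at least 1 CPM in all 16 libraries and an interaction that passed the threshold, so their p-values carry no further support. ENSMUSG00000020577 stood at 432 and 297 CPM in the beaver livers, against 1.32 to 4.75 CPM in the 6 baboon livers and 4.46 ± 1.12 CPM in macaque (SD, n = 6). In brain the species were alike, at 109.6 and 102 CPM in beaver and 94.3 ± 8.23 CPM in baboon. The log2 fold change of beaver over baboon was 6.93 ± 0.26 in liver and 0.06 ± 0.26 in brain (edgeR adjusted p = 0.886), and the interaction was 6.87 ± 0.44 (adjusted p = 3.39e-08). The species thus stood at similar levels in brain and differed in liver, and the part of read assignment in this was not tested.

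ENSMUSG00000022371 stood at 92.5 and 101 CPM in the beaver livers, 1.69 to 7.2 CPM in the baboon livers and 3.76 ± 1.31 CPM in macaque. In brain the direction was opposite, with 3.82 and 6.16 CPM in beaver and 13.1 ± 6.87 CPM in baboon, a difference of -1.51 ± 0.55 on the log2 scale (SE; edgeR adjusted p = 0.0342). The interaction was 5.66 ± 0.77 (edgeR adjusted p = 3.82e-05).

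In the opposite direction, ENSMUSG00000005681 was almost uncounted in beaver liver, at 1.3 and 1.13 CPM. Baboon livers held 3304, 4998 and 7886 CPM as the lowest, median and highest value, and macaque livers 5574, 8801 and 11257 CPM. In brain it was low in both species, at 3.44 and 4.33 CPM in beaver and 6.46 ± 5.96 CPM in baboon. The interaction was -11.46 ± 1.23 (edgeR adjusted p = 4.73e-06), and the liver difference from both primates was -12.53 ± 0.56 (adjusted p = 3.23e-10). Among other livers it was abundant in chipmunk (4547 ± 455 CPM), white-footed mouse (1533 CPM) and bear (480.2 CPM), stood at 1.18 ± 0.493 CPM in sugar glider, and had no count in bat. Beaver thus shared its low level with bat and sugar glider and not with the other rodents.

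ENSMUSG00000061808 stood at 2.04 and 1.48 CPM in the beaver livers, and at 3541, 4581 and 5535 CPM as the lowest, median and highest of baboon and 3349.7, 5436 and 6530 CPM of macaque. In brain it was low in both species, at 3.06 and 2.69 CPM in beaver and 6.39 ± 5.24 CPM in baboon. The interaction was -10.26 ± 1.12 (edgeR adjusted p = 5.35e-06), and the liver difference from both primates was -11.54 ± 0.42 (adjusted p = 5.02e-11). Every other liver was well above beaver, from 704 ± 149 CPM in sugar glider over 1663 CPM in bat and 2312 CPM in bear to 6259.8 CPM in white-footed mouse and 7013 ± 3806 CPM in chipmunk. Beaver was the one species of the 8 whose liver was nearly without counts of this gene. Brain, where the gene is quiet in both species, cannot show whether beaver reads of it are assigned.

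A second view on the direction of change came from the earlier collection, which holds rodents and other mammals. For genes counted in chipmunk, white-footed mouse, bear and bat livers, the mean log2(CPM + 1) of the 2 rodents was set against that of bear and bat. Over all 10362 such genes, of 13125 tested, the rodents were higher in 32.3%. Among 2742 genes called higher in beaver the rodents were higher in 38.1%, and among 2832 called lower in 31.2%. At a log2 fold change of 5 or more the shares were 56.4% of 78 higher genes and 33.5% of 164 lower genes. Most genes of that size dropped out here, since only 78 of 270 higher and 164 of 695 lower ones were counted in all 4 species. The shares leaned the same way as the beaver calls for higher genes, the more so for large ones, and for lower genes they stayed near the share over all genes. They come from 5 libraries of 4 species and are given with no test.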

How the data were processed

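The counts are raw and not normalized, as the authors deposited them, in a table with 16816 rows named by mouse Ensembl gene IDs and 1 column per library. STAR and featureCounts are named in the submitters' processing notes, with versions, genome builds, annotation and strand setting not stated. All 48 columns matched a sample, and 0 were left unmatched. Of the low counts (1 to 20), nearly all were even, so 1 deposited count probably stands for 1 read of a pair, and the limit for a group with no count was set at 3 read pairs, or 6 counts. No adjustment for gene length was possible.

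The 14 livers were tested with edgeR 4.0.16 in R 4.3.3 (TMM factors, filterByExpr with default settings, quasi-likelihood F test, two-sided). The contrast was beaver minus the mean of baboon and macaque, and SE is the log2 fold change divided by the square root of F. Benjamini-Hochberg adjustment ran over all genes tested, and a call needed an adjusted p under 0.05 with the same sign against each primate. Beaver and baboon livers and brains (16 libraries) were fitted together for the interaction. Code was tested on simulated data. Alternatives used DESeq2 1.42.0, other scalings and filters, a replicate block and each library left out. Measures of single libraries were compared with exact permutation tests.

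The members and gene lists were chosen with earlier results of these data known. By the rule for named genes, 2 IDs at each end of the fold changes are given, among called genes with a count in all 14 livers, at least 20 CPM, a call against each primate and no overlap. The interaction genes, with at least 1 CPM in all 16 libraries, were chosen after their values were seen, by a rule tightened 2 times: first to drop genes with 2 or 3 read pairs in a group, then to drop a gene that differed in brain alone. The organ-enriched groups were also defined after the data were seen. The 40 lists of pathway and cell type genes are written as symbols. The reference table covers baboon, 0 of the 16816 IDs matched it, so neither these lists nor the naming of genes by symbol could be carried out, and no sequence is shown. Near-identical copies, overlaps and antisense pairs of genes cannot be seen from the IDs.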

Additional observations from a re-analysis of the deposited data

Results flagged for a closer look

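For the 8 genes given by ID, the interaction term of the edgeR fit over 16 libraries passed the threshold (the log2 difference of beaver and baboon in liver minus that in brain). ENSMUSG00000020577, ENSMUSG00000022371, ENSMUSG00000005681 and ENSMUSG00000061808 were chosen by a rule that required this, so their passing is no result. The other 4 were chosen by the size of their liver difference from the primates. The interaction contains the liver difference of beaver and baboon from the same libraries, so their passing is no independent support either. Over all 14504 genes of the fit, 5741 passed (39.6%). None of 34 checks for a single library far from its group picked one out, but these checks need 4 or more libraries and could not be made on the beaver groups of 2.

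The difference was more positive in liver for 4 genes. ENSMUSG00000020577 had an interaction of 6.87 and ENSMUSG00000022371 of 5.66, with the species alike in brain for the first and beaver lower in brain for the second. ENSMUSG00000004032 had 6.6 (edgeR adjusted p = 1.36e-06), and it was higher in beaver in both organs, by 2.85 ± 0.34 in brain (SE; edgeR adjusted p = 8.03e-06). ENSMUSG00000049685 had 8.97 (edgeR adjusted p = 1.58e-06), a value that depends on the prior count because the 2 beaver brains held 6 counts in all.

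The difference was more negative in liver for the other 4. ENSMUSG00000005681 had an interaction of -11.46 and ENSMUSG00000061808 of -10.26, both nearly uncounted in beaver liver, abundant in primate liver and low in both brains. ENSMUSG00000064363 had -3.19 (edgeR adjusted p = 0.0332) and ENSMUSG00000064367 had -2.59 (edgeR adjusted p = 0.0496). These last values rest on 1 library. Without the first beaver brain, which stood at 13 and 6.63 CPM against 0.394 and 0.525 CPM in the second, they were 0.9 (adjusted p = 0.481) and 0.19 (adjusted p = 0.951) by the same edgeR fit, with the sign reversed. Both genes were lower in beaver in brain as in liver, at -10.06 ± 1.09 and -12.11 ± 1.02 on the log2 scale (edgeR adjusted p = 3.52e-06 and 2.88e-07).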

How the results depend on the processing

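The 7209 calls became 7595 with DESeq2, 7219 and 7210 under other scalings, 7329 with no filter, 5999 with genes counted in all 14 livers, 7397 with all 21 livers fitted, and 7138 without genes near absent on a side (added after seeing the data). Requiring a log2 fold change of 1 against each primate left 4384. Leaving out each library gave 5301 to 7313; the low end comes from dropping a beaver liver, where the lone one left is assumed to vary like the other groups, and 71.1% to 71.2% of the calls remained. The interaction count of 5741 ranged from 4435 to 6552. Of 252 refits of 12 fold changes, 232 kept their direction and call, though the liver value of ENSMUSG00000064363 moved from -14.5 to between -16.21 and -13.75. The other 20 concern 2 interactions. That of ENSMUSG00000064363 ran from -4.92 to 0.9 with a library left out and missed the threshold in 3 refits: without the first beaver brain (0.9), without the first beaver liver (-2.44, edgeR adjusted p = 0.176) and with the replicate block (-2.27, adjusted p = 0.22). That of ENSMUSG00000064367 ran from -3.45 to 0.19 (0.19 without the first beaver brain) and missed it in 17 of 21 refits. With the replicate block 6180 genes were called in liver, 81.2% of the 7209 among them, and 5343 for the interaction. The replicate numbers were not taken to pair the samples, since the labels do not tie them to animals and no correlation of deviations passed 0.1. It was -0.0644 to 0.0509 between same-numbered baboon and macaque livers, where 1 of 6 correlated best with its own number, and 0.0586 to 0.0789 between baboon livers and brains, where 5 of 6 did, a hint of pairing from the data and not the design. For the beaver liver and brain it was 0.0792. With 2 beaver libraries, small differences are the least certain.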
